A study of Homo sapiens with 3 samples.

Results

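Ribosomal protein genes were examined as a group of promoters in the PHF13 and EZH2 peak lists of PANC-1, a long-established cell line from a human pancreatic ductal carcinoma. The members were all protein-coding genes on GRCh37 (hg19) with a symbol that begins with RPL or RPS, except the RPS6K kinases and RPS19BP1, which gave 91 of 20162 genes. Of these, 43 encode large subunit proteins, 3 encode the proteins of the stalk (RPLP0, RPLP1 and RPLP2), 31 encode small subunit proteins, 11 are paralogues outside the standard set (RPL3L, RPL7L1, RPL10L, RPL22L1, RPL26L1, RPL36AL, RPL39L, RPS27L, RPS4Y1, RPS4Y2 and RPSA2) and 3 are read-through genes that join a ribosomal protein gene to its neighbour (RPL17-C18orf32, RPL36A-HNRNPH2 and RPS10-NUDT3). The first 3 classes make up a core set of 77 genes. The binding sites come from ChIP-seq, in which DNA crosslinked to a protein is precipitated with an antibody and sequenced, in wild-type cells with no treatment listed, after crosslinking with EGS and formaldehyde. The series lists 3 samples, 1 each for the PHF13 antibody, the EZH2 antibody and the input. All cells belonged to 1 line, and no replicate was listed, so a difference between the 2 lists or between gene groups cannot be set against a spread between libraries and no test is given. The PHF13 list held 19039 peaks and the EZH2 list 21639. Expression and histone marks were not analysed here, so whether each member was active, and whether the cells carried pancreatic markers, was not checked.

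PHF13 is a PHD-finger protein that binds histone H3 methylated at lysine 4, a mark of active and poised promoters. EZH2 is the enzyme of Polycomb repressive complex 2, which methylates lysine 27 of histone H3 at silent developmental genes. Ribosomal proteins assemble with ribosomal RNA into the small and large subunits, and their genes are transcribed at high levels in nearly all growing cells. Their promoters usually lie in CpG islands, and transcription usually begins at a cytosine within a run of pyrimidines, so that the mRNA starts with a terminal oligopyrimidine (TOP) tract through which growth signals control its translation. Many of them carry genes for small nucleolar RNAs (snoRNAs), guides of ribosomal RNA modification, in their introns.

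The start of these genes is shown for 7 members that had a PHF13 peak, since the pyrimidine run at the start is the hallmark of this gene family. Each line gives 70 bases before and 20 bases from the canonical start on GRCh37, and the capitals mark the unbroken run of C and T that begins at the start.
RPLP1 (chr15:69745087-69745176, plus strand): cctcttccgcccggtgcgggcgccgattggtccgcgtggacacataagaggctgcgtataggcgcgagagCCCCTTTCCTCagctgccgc
RPLP2 (chr11:809897-809986, plus strand): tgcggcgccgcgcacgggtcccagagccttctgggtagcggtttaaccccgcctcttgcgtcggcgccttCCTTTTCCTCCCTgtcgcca
RPS12 (chr6:133135638-133135727, plus strand): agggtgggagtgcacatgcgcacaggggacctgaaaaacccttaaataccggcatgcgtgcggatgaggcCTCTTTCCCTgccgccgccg
RPS16 (chr19:39926570-39926659, minus strand): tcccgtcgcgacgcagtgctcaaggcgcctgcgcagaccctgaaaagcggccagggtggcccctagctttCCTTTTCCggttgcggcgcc
RPL27A (chr11:8704269-8704358, plus strand): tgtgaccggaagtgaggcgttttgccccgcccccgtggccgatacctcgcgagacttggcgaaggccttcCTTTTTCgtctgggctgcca
RPL29 (chr3:52029892-52029981, minus strand): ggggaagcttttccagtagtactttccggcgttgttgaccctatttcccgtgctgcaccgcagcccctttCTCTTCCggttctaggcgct
RPL39 (chrX:118925574-118925663, minus strand): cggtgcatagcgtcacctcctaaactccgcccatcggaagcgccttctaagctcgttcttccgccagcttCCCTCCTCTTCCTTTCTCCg

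The run was 19 bases long at RPL39, 13 at RPLP2, 11 at RPLP1, 10 at RPS12, 8 at RPS16 and 7 at RPL27A and RPL29. A C followed by at least 4 pyrimidines stood at the canonical start of 60 of 91 members (65.9%) and of 4.55% of all protein-coding genes. Among the core genes the share was 75.3%, and it rose to 90.9% when any annotated start was allowed, against 16.2% of all genes. The run did not separate members with and without PHF13: 13 of the 60 members with it (21.7%) and 6 of the 31 without it (19.4%) had a PHF13 peak within 1 kb, and the intervals of 13.1 to 33.6% and 9.19 to 36.3% overlapped.

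A peak of either list was counted for a gene when its nearest edge lay within 1 kb, or within 5 kb, of any annotated transcript start. PHF13 peaks lay within 1 kb of 19 of 91 members, 20.9% with a 95% Wilson interval of 13.8 to 30.3%, and of 13.6% of all protein-coding genes. Within 5 kb the count was 25 (27.5%, interval 19.4 to 37.4%), against 21.0% of all genes. The interval for 1 kb began just above the share of all genes, and the interval for 5 kb included it. For the 77 core genes the share within 1 kb was 20.8% with an interval of 13.2 to 31.1%, which included the 13.6% of all genes. The share of all genes also lay within the interval when only peaks with a −log10 q of at least 3 were counted (7.71 to 21.6% against 9.08%), so the higher PHF13 share did not hold up beyond counting error in every setting. EZH2 peaks were rarer: only RPL7 and RPL38 had an EZH2 peak within 1 kb, 2.2% of members (0.605 to 7.66%) against 16.6% of all genes. RPS16 was added within 5 kb, which made 3 members (3.3%, 1.13 to 9.25%) against 23.6% of all genes, and both intervals lay below the share of all genes. No member had both proteins within 1 kb, where 0 of 91 allows a share of up to 3.3% and 2.01% of all genes had both. Within 5 kb RPS16 alone had both, 1.1% of members (0.194 to 5.96%) against 5.33% of all genes, which lay within the interval. These intervals cover counting error over genes only, and neighbouring genes that share a peak are not independent.

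**Figure D1:**
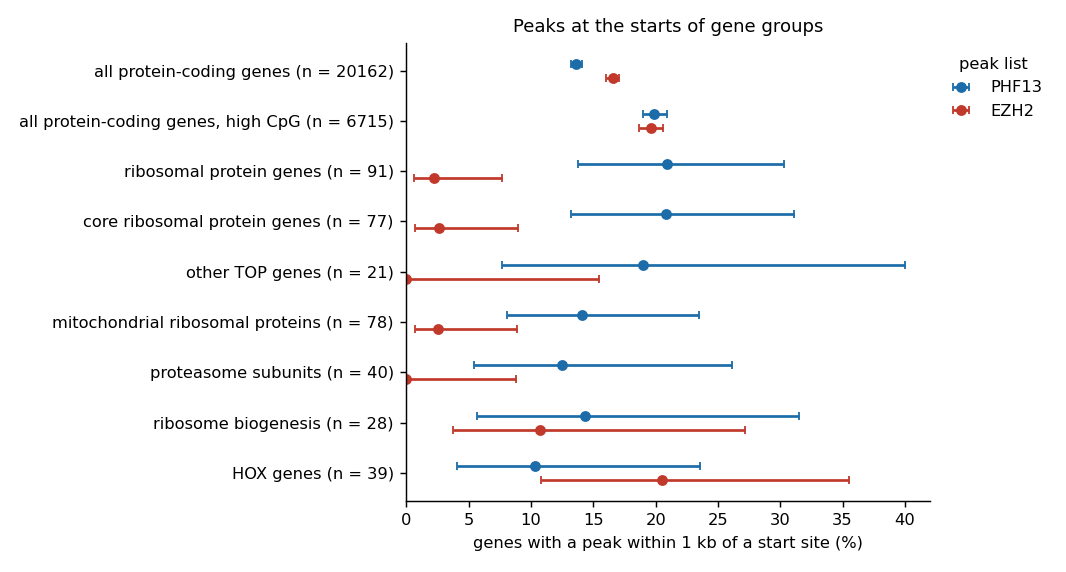
Share of genes with a peak within 1 kb of an annotated start (x axis, percent) for 9 gene groups (y axis, with the number of genes), in the PHF13 list (blue) and the EZH2 list (red); points are shares and bars 95% Wilson intervals over genes. The ribosomal protein genes stood at 20.9% for PHF13 and 2.2% for EZH2, and all protein-coding genes at 13.6% and 16.6%.

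Since many ribosomal protein promoters are rich in CpG dinucleotides, the members were set beside genes with a like CpG ratio. The ratio of observed to expected CpG over 1 kb centred on the canonical start had a median of 0.789 in members and 0.723 in all genes, and 42 members fell in the highest of 3 equal groups of genes by this ratio. Of these 42, 10 (23.8%, 13.5 to 38.5%) had PHF13 within 1 kb, against 19.9% of all genes in that group, so the share of all such genes lay within the interval. None of the 42 had EZH2 within 1 kb or within 5 kb, which allows a share of up to 7.14%, whereas 19.6% and 25.4% of all genes in the group did. In the middle CpG group, 8 of 47 members (17.0%) had PHF13 within 1 kb against 14.9% of all genes, and 2 of 47 (4.26%) had EZH2 against 18.5%. The remaining 2 members lay in the low group. The gap in PHF13 was smaller in both groups than over all genes, while the gap in EZH2 stood in both. The groups match the CpG ratio only: the median GC content was 57.5% in members and 68.0% in all genes of the highest group.

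Other groups of genes with a role in protein synthesis or turnover were set beside the members. Among 78 mitochondrial ribosomal protein genes, which encode the ribosome of the organelle and follow other start sequences, 14.1% had PHF13 and 2.56% had EZH2 within 1 kb. Among 21 other genes of TOP mRNAs, such as elongation factors, the shares were 19% for PHF13 and 0 of 21 for EZH2, which allows up to 14.3%. The 40 proteasome subunit genes gave 12.5% for PHF13 and 0 of 40 for EZH2, which allows up to 7.5%. The 28 ribosome biogenesis genes, which encode nucleolar factors and RNA polymerase I subunits, gave 14.3% and 10.7%. The 39 HOX genes, textbook targets of Polycomb, gave 10.3% for PHF13 and 20.5% for EZH2 (interval 10.8 to 35.5%, against 16.6% of all genes). Within 5 kb, 35.9% of them had EZH2 (22.7 to 51.6%), against 23.6% of all genes. Both EZH2 intervals included the share of all genes, so the HOX genes did not stand apart beyond counting error. The mitochondrial ribosomal protein, proteasome and other TOP genes thus also had EZH2 shares below that of all genes, and the intervals of the PHF13 shares of all these groups overlapped.

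**Figure D2:**
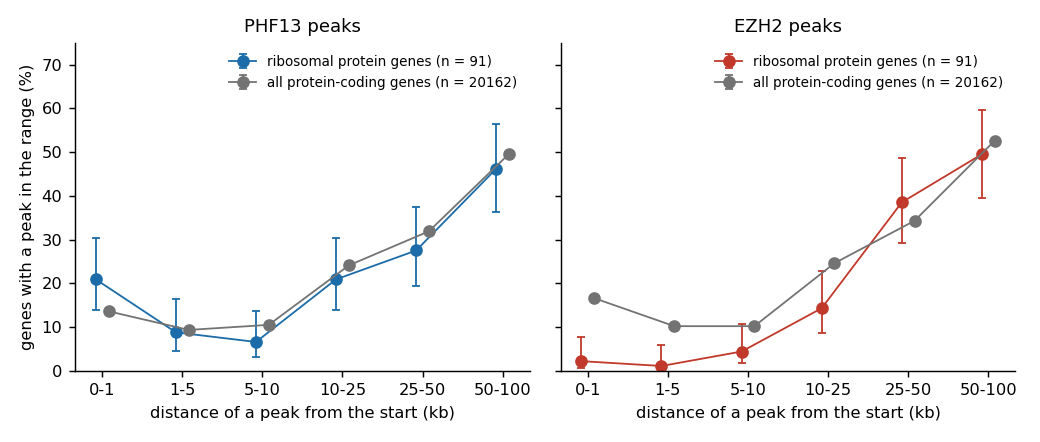
Share of genes with at least 1 peak in each range of distance from an annotated start (x axis, kb; y axis, percent), for PHF13 (left, blue) and EZH2 (right, red); grey points are all 20162 protein-coding genes and bars are 95% Wilson intervals. As point shares, the members stood above all genes for PHF13 only in the first range (20.9% against 13.6%), and below all genes for EZH2 in every range except 25 to 50 kb.

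As point shares, the members stood above all genes for PHF13 in the first 1 kb only, whereas for EZH2 they stood below out to 25 kb. Between 1 and 5 kb, 8.79% of members and 9.34% of all genes had a PHF13 peak, and between 25 and 50 kb the shares were 27.5% and 31.9%. For EZH2, 1.1% of members (0.194 to 5.96%) had a peak between 1 and 5 kb against 10.2% of all genes. Between 5 and 10 kb the shares were 4.4% (1.72 to 10.8%) against 10.2%, and the interval included the share of all genes. Between 10 and 25 kb they were 14.3% (8.54 to 22.9%) against 24.6%. Beyond 25 kb the EZH2 shares lay closer to each other, 38.5% against 34.3% up to 50 kb and 49.5% against 52.6% up to 100 kb. The nearest EZH2 peak lay at a median of 53136 bp from a member and 34292.5 bp from a gene of the whole set. For PHF13 these medians were 37554 and 35999 bp.

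The members with PHF13 were spread over the classes. Within 1 kb they comprised 9 of 43 large subunit genes (20.9%), 5 of 31 small subunit genes (16.1%), 2 of the 3 stalk genes, 1 of 11 paralogues and 2 of the 3 read-through genes. The 2 read-through genes share their peaks with RPL17 and RPL36A. When each peak was given to its closest protein-coding gene only, 17 members were counted (18.7% against 12.4% of all genes), without RPL36 and RPL17-C18orf32. The 19 peaks behind these members were all single-copy, meaning that the median 24-base word of the 100 bp around the summit (the position of highest coverage) occurs once in the genome, and 89.1% of the 2676 PHF13 peaks within 1 kb of any protein-coding start were. Copy number is given because ribosomal protein genes have many processed pseudogenes of near-identical sequence. No peak of these 19 overlapped an EZH2 peak, and 0 of 19 allows a share of up to 15.8%. The same overlap was not counted over all PHF13 peaks. Of all genes, 2752 had PHF13 within 1 kb and 406 had both lists, so the 0 is not read as a trait of these peaks. Their median fold enrichment over local background was 3.17 (1.89 to 4.52), their median −log10 q 3.53 (1.92 to 7.90) and their median summit 23 fragments (16 to 142). All PHF13 peaks near protein-coding starts had medians of 3.36, 3.62 and 21, close to those of the 19 peaks.

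**Figure D3:**
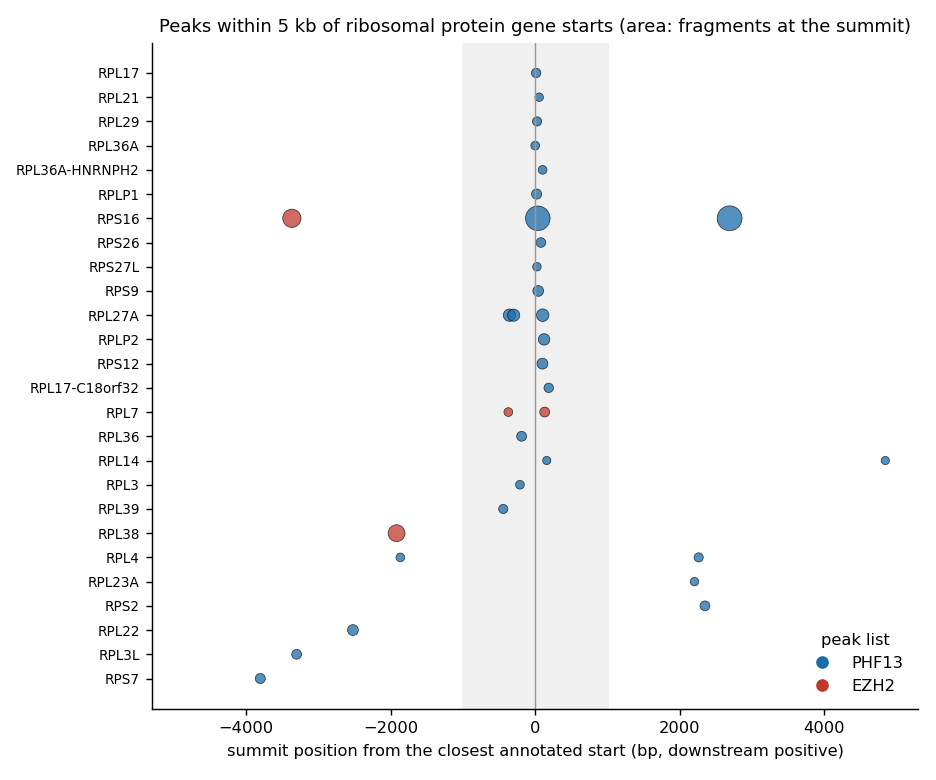
Position of each peak summit relative to the closest annotated start (x axis, bp, downstream positive) for 26 members with a peak of either list within 5 kb (y axis); blue is PHF13, red is EZH2, the area of a point is proportional to the fragments at its summit and the grey band marks 1 kb on each side. PHF13 summits of 18 of these members fall in the band, and EZH2 summits in it belong to RPL7.

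Both acidic stalk proteins, which recruit translation factors to the ribosome, had PHF13 at the start, while RPLP0, the scaffold of the stalk, had no peak of either list within 5 kb. The RPLP1 peak (chr15:69745133-69745544) was the widest of the 19 at 412 bp, with its summit 82 bp downstream of the canonical start in an untranslated exon, 3.82-fold enrichment, −log10 q 5.21 and 24 fragments. The RPLP2 peak (chr11:810020-810213) had its summit 156 bp downstream, 2.52-fold enrichment, −log10 q 2.88 and 31 fragments, and it also lay 267 bp from a start of PIDD1. The next coding start from the RPLP1 peak, of KIF23, was 6494 bp away.

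Among small subunit genes, PHF13 was found at RPS9, RPS12, RPS16 and RPS26, among others. RPS12, which hosts 3 snoRNAs and has 1 annotated start, had an intronic peak (chr6:133135732-133135907) with a summit at +97 bp, 4.32-fold enrichment, −log10 q 7.51 and 28 fragments. RPS26, a protein at the mRNA exit of the small subunit, had an intronic summit at +298 bp (chr12:56435736-56436118) with 3.53-fold enrichment and a −log10 q of 4.08. RPS9 had its summit at +60 bp in an untranslated exon (chr19:54704745-54704911), with 2.90-fold enrichment, −log10 q 3.43 and 27 fragments. RPS16 had the highest −log10 q of the group, 7.90, and the lowest fold enrichment, 1.89.

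The RPS16 values rested on an unusual background. At its start peak (chr19:39926393-39926625, summit at +67 bp in a coding exon) 142 fragments stood over a local background of 74.8, which is 17.7 times the floor of 4.23 that the PHF13 list has genome-wide. A second PHF13 peak 2583 bp from an RPS16 start had 146 fragments over 80.8, and the EZH2 peak at 3321 bp (chr19:39929910-39930106) had 79 over 45.7, 10.4 times the EZH2 floor of 4.42. That EZH2 peak was multi-copy, with 14 copies of its median word, and lay 106 bp from a start of SUPT5H, which encodes an elongation factor of RNA polymerase II. Of the 92 PHF13 peaks within 1000 kb of RPS16, 95.7% stood on a background of at least 5 times the floor, against 4.59% on the rest of chromosome 19. For the 111 EZH2 peaks of that region the share was 95.5%, against 4.78%. The only member with both proteins within 5 kb was thus in a region of high background in both lists, and the part of that background in its peaks was not tested.

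Among large subunit genes, PHF13 was found at RPL3, RPL14, RPL17, RPL21, RPL27A, RPL29, RPL36, RPL36A and RPL39. RPL27A alone had 3 peaks within 1 kb of its starts. Its start peak (chr11:8704374-8704540) had a summit at +118 bp, 3.04-fold enrichment and a −log10 q of 5.53. A second (chr11:8704003-8704148) lay at −305 bp with a −log10 q of 4.67, 31 bp from a start of the neighbouring TRIM66. The third (chr11:8710271-8710580) lay at an alternative start far downstream, at +5979 bp from the canonical start, with a −log10 q of 5.86. The 3 summits held 37, 35 and 36 fragments over backgrounds of 10.7 to 11.5.

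RPL17, which hosts 3 snoRNAs, had a summit at +170 bp in an untranslated exon (chr18:47018637-47018792) with 4.21-fold enrichment, −log10 q 5.32 and 21 fragments over a background at the floor. RPL36, a small protein of the large subunit, had the highest fold enrichment of the 19 peaks, 4.52, with a −log10 q of 6.56. That peak (chr19:5680788-5680944) lay at an alternative start, with its summit at −9459 bp from the canonical one, and 12 bp from a start of HSD11B1L. The count for RPL36 thus did not rest on its canonical start. RPL29 (chr3:52029740-52029883) had its summit at +104 bp with 3.30-fold enrichment and a −log10 q of 3.24. RPL36A and its read-through gene shared an intronic summit at +100 bp of the former (chrX:100645980-100646187), with 3.04-fold enrichment and a −log10 q of 2.47.

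The peaks at the other large subunit genes had −log10 q values of 1.92 to 3.30. RPL21 had 3.44-fold enrichment and a −log10 q of 2.95 with its summit at −144 bp from the canonical start (chr13:27825513-27825816), in an untranslated exon of a longer transcript. RPL3 had an intronic summit at +795 bp (chr22:39714771-39714961), 157 bp from the snoRNA gene SNORD43, with a −log10 q of 2.71. RPL39, a protein of the exit tunnel, had its summit at −445 bp, outside the gene (chrX:118926000-118926209), with a −log10 q of 3.30. That peak lay 407 bp from the RPL39 start and 66 bp from a start of a long non-coding RNA gene. RPL14 had the lowest −log10 q of the group, 1.92, with 16 fragments at +181 bp in a coding exon (chr3:40498959-40499102). RPS27L, a paralogue of RPS27 known as a p53 target, was the only paralogue with PHF13 within 1 kb, at +217 bp (chr15:63449380-63449759), with 2.92-fold enrichment and a −log10 q of 2.12.

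The sequence under some of these summits is given to show how different it was from peak to peak. Each line holds 100 bases around the summit on GRCh37, in the direction of the gene, with CpG dinucleotides in capitals.
RPS12 (chr6:133135755-133135854, plus strand): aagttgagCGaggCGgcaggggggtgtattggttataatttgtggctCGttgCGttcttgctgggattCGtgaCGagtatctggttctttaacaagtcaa
RPS26 (chr12:56435950-56436049, plus strand): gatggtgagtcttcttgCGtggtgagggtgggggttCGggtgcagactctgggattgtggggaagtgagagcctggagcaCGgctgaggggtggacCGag
RPL14 (chr3:40498961-40499060, plus strand): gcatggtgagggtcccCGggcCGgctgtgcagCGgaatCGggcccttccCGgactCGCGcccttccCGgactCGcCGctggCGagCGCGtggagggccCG
RPL39 (chrX:118925988-118926087, minus strand): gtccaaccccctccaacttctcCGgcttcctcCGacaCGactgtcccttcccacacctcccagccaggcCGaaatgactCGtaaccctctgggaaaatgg
RPL3 (chr22:39714783-39714882, minus strand): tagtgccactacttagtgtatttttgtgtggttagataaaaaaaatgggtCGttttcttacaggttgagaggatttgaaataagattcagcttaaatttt

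RPL14 held 14 CpG dinucleotides, whereas RPS12 held 6, RPL39 held 5, RPS26 held 4 and RPL3 held 1. The GC content of the 5 stretches ranged from 31% at RPL3 to 77% at RPL14, so CpG-poor and CpG-dense summits both occurred.

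**Figure D4:**
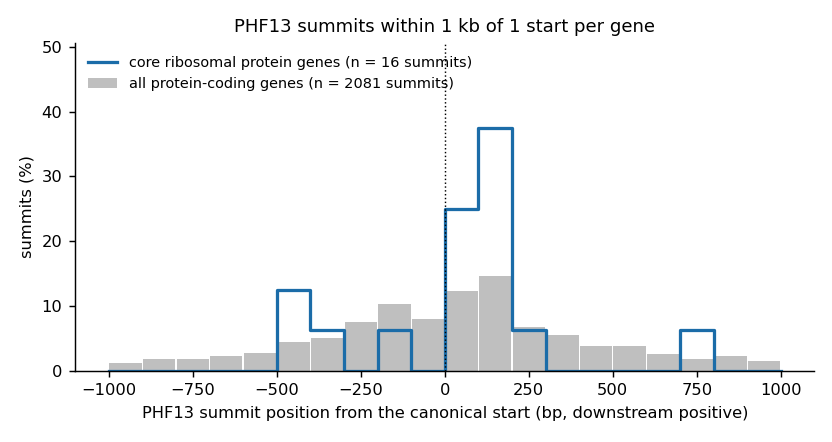
Distribution of PHF13 summits within 1 kb of the canonical start (x axis, bp, 100-bp bins, downstream positive; y axis, percent of summits) for the core ribosomal protein genes (blue line, 16 summits) and all protein-coding genes (grey bars, 2081 summits). Of the core summits 68.75% lie in the 300 bp downstream of the start, against 33.6% for all genes.

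With 1 start per gene, PHF13 summits at members lay mostly just inside the gene. Of 19 summits within 1 kb of a canonical start, 14 lay downstream (73.7%, 51.2 to 88.2%), against 54.8% of 2081 summits for all genes. The share of all genes lay within that interval. The 19 count the shared summits of RPL17 and RPL36A for their read-through genes as well. In the 300 bp downstream lay 13 of 19 (68.4%, 46.0 to 84.6%), against 33.6%. The core genes alone, in which no peak is counted for a read-through gene as well, gave 12 of 16 downstream (75%, 50.5 to 89.8%). Within 300 bp they gave 11 of 16 (68.75%, 44.4 to 85.8%). Only the intervals for 300 bp lay above the share of all genes. The median summit stood at +99 bp for members and at +49 bp for all genes. For EZH2 no member had a summit within 1 kb of its canonical start, where all genes had 3077.

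PHF13 was found at 6 members only between 1 and 5 kb, and several of these peaks lay nearer to a start of another gene. RPS7 had the strongest (chr2:3618937-3619131), 3719 bp from its start, with 4.61-fold enrichment, −log10 q 7.05 and 24 fragments. A start of a long non-coding RNA gene lay nearer to this peak, at 3289 bp, and the next coding start was 13014 bp away. The peak counted for RPL22 (chr1:6265879-6266144, −log10 q of 5.88) lay 2325 bp from an RPL22 start and 35 bp from a start of RNF207. RPS2 and RPL3L shared 1 peak, which was nearer to NDUFB10. RPL4 had 2 peaks, of which one lay 58 bp from a start of SNAPC5, and the RPL23A peak lay 380 bp from NEK8. The count within 5 kb fell to 19 when each peak was given to its closest protein-coding gene. That was 20.9% of members (13.8 to 30.3%) against 18.4% of all genes, which lay within the interval.

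The 3 members with EZH2 were unlike each other. RPL38, a large subunit protein with a known part in the translation of Hox mRNAs in the mouse, had a domain 2165 bp wide upstream of the gene (chr17:72196950-72199114), with its edge 607 bp from a start, 3.65-fold enrichment, −log10 q 15.4 and 67 fragments over a background of 17.6. EZH2 peaks within 1 kb of any coding start had a median width of 470 bp and a median −log10 q of 6.60. No other annotated start lay within 10333 bp of the RPL38 domain. The summit stood at −2017 bp from the canonical start, and the 100 bases around it held 2 CpG dinucleotides at a GC content of 46.0%.
RPL38 (chr17:72197750-72197849, plus strand): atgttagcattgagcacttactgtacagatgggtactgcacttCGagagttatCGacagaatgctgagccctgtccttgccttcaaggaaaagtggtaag

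At RPL7 there were 2 narrow EZH2 peaks (chr8:74207790-74207949 and chr8:74206974-74207123), with −log10 q of 6.84 and 3.61 and 23 and 18 fragments over a background at the floor. Their summits stood at −2028 and −1180 bp from the canonical start, inside an intron from an alternative start. The peak edges lay 75 and 301 bp from annotated RPL7 starts. They were closer to RDH10, a retinol dehydrogenase gene whose starts lay 39 and 137 bp away. When each peak was given to its closest gene, RPL38 was the only member with EZH2 at either distance.

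**Figure D5:**
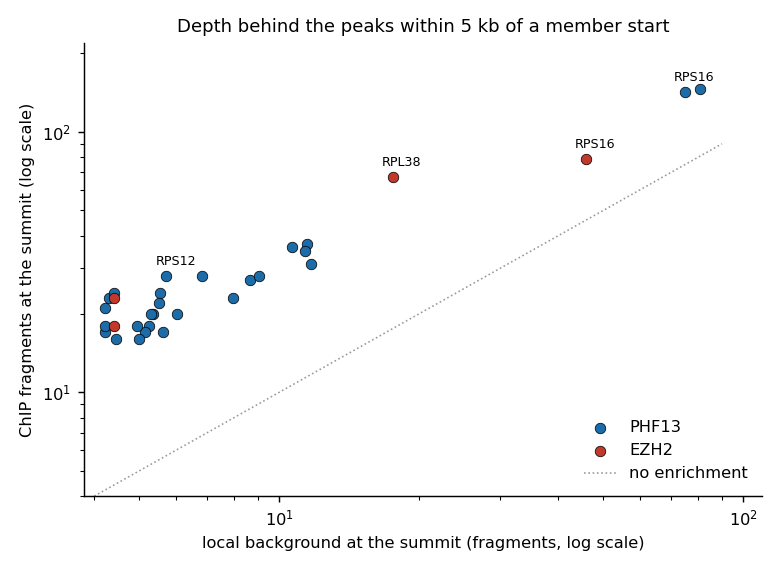
ChIP fragments at the summit (y axis, log scale) against the local background (x axis, fragments, log scale) for every peak within 5 kb of a member start; blue is PHF13, red is EZH2, and the dotted line is equal height. The RPS16 peaks stand apart at backgrounds of 45.7 to 80.8, and the RPL38 EZH2 domain has 67 fragments over 17.6.

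The 64 members with no peak of either list within 5 kb were 29 large subunit genes (among them RPL5, RPL6, RPL7A, RPL8, RPL9, RPL10, RPL10A, RPL11, RPL12, RPL13, RPL13A, RPL15, RPL18, RPL19, RPL23, RPL24, RPL26, RPL27, RPL28, RPL30, RPL31, RPL32, RPL34, RPL35, RPL35A, RPL37, RPL37A and RPL41), RPLP0, 24 small subunit genes (among them RPSA, RPS3, RPS3A, RPS4X, RPS6, RPS10, RPS13, RPS14, RPS15, RPS15A, RPS18, RPS19, RPS20, RPS21, RPS23, RPS24, RPS25, RPS27, RPS27A, RPS28 and RPS29), RPS10-NUDT3 and the other 9 paralogues. The promoters with and without PHF13 within 1 kb had similar composition. The median CpG ratio was 0.818 in the 19 and 0.789 in the 72 others, and the median GC content 57.5% and 57.45%. Of the 30 members that host a snoRNA, 8 had PHF13 (26.7%, 14.2 to 44.4%), and of the 61 others 11 (18.0%, 10.4 to 29.5%), so the intervals overlapped. With a median summit of 21 fragments in the PHF13 list, a missing peak means that binding was not detectable at this depth, not that it was absent. Of the 24-base words in the 1-kb promoter, 95.4% occurred once in the genome at the median member and 99.6% at the median of all genes.

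Short motifs were sought on both strands in 300 bp centred on each canonical start. CCGGAAG, a site of ETS factors, was found in 28.6% of members (20.3 to 38.6%) and 13.4% of all genes, and AAGATGGCG, a site of YY1, in 9.89% (5.29 to 17.7%) and 2.98%. GGGCGG, a site of SP1, was found in 56.0% and 61.1%, and TATAAA in 9.89% and 8.19%. The AP-1 sites TGACTCA or TGAGTCA were found in 1.1% of members and 3.15% of all genes, and in 0 of the 19 members with PHF13, which allows a share of up to 15.8%. CCGGAAG stood in 5 of these 19 (26.3%, 11.8 to 48.8%) and in 29.2% of the 72 others (19.9 to 40.5%). Among all genes with EZH2 within 1 kb, CCGGAAG was found in 5.18% and a C followed by 4 pyrimidines at the canonical start in 3.54%, against 13.4% and 4.55% of all genes. The intervals for the ETS and YY1 sites at members thus lay above the shares of all genes, while those of members with and without PHF13 overlapped. A match of letters is a description of the window and not a bound site.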

How the data were processed

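Peak lists from 1 PHF13 and 1 EZH2 ChIP-seq library of PANC-1 cells were analysed. According to the methods and the submitters' notes, the authors trimmed reads with Trim Galore 0.4.1, aligned them to hg19 with Bowtie2 2.4.1, discarded duplicates using Picard and ran MACS2 2.2.7.1 with the input as control. The deposited files give a score, a fold enrichment (a ratio over local background), and p- and q-values on the −log10 scale for each peak. The weakest deposited −log10 q is 1.30, looser than the limit given in the methods for PHF13, and the EZH2 list is in narrow format although broad peaks are described for it; both were used as deposited. Read totals are unknown from these lists.

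Starts are the 5′ ends of all transcripts in GENCODE 44 on GRCh37, and the canonical start is that of 1 transcript per gene. Distances run from the nearest peak edge unless a summit is named. Fragments and background at each summit were solved from fold enrichment and p (100% of peaks, relative tolerance 0.0001) after the code was tested on simulated data. Copy number used 24-base words in 100 bp at the summit, or in 1 kb at a start. CpG groups are 3 equal groups of genes; 18 genes had no readable promoter. Windows that would print over 30 untranslated bases are not shown. Shares have 95% Wilson intervals, and a count of 0 allows 3. Python 3.11.15 with pandas 2.3.3, numpy 2.4.6, scipy 1.17.1 and pysam 0.24.0 was used.

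The members and lists were chosen with earlier results of these data known. Every member with a peak within 1 kb is named with its peak; members with PHF13 only at 1 to 5 kb have values where −log10 q is at least 5; others are named. A few members are counted but not reported here by name. Alternatives were 1 start per gene, coding transcripts only, distance from the summit and −log10 q of at least 3 or 5. Others were single-copy peaks, core genes and, chosen after seeing the data, each peak given to its closest protein-coding gene.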

Additional observations from a re-analysis of the deposited data

How the results depend on the processing

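Of 32 alternatives, 24 gave a count of members within 1.5 times the reported one. A −log10 q of at least 3 left 12 members with PHF13 within 1 kb (13.2% against 9.08% of all genes) and 15 within 5 kb (16.5% against 14%); a limit of 5 left 7 (7.69% against 3.98%) and 9 (9.89% against 6.62%). The EZH2 count within 1 kb fell to 1 with 1 start per gene, with distance from the summit, and with each peak given to its closest gene; the last also left 1 within 5 kb. The summit of the RPL38 domain stood over 1 kb from a start, and the RPL7 peaks lay nearer to RDH10. In all 16 combinations of setting and distance, the PHF13 share of members was above that of all genes and the EZH2 share below it, as point values. The PHF13 interval within 1 kb nevertheless included the share of all genes for core genes only (13.2 to 31.1% against 13.6%), for a −log10 q of at least 3 (7.71 to 21.6% against 9.08%) or 5 (3.78 to 15.0% against 3.98%), and with each peak given to its closest gene (12.0 to 27.9% against 12.4%). With 1 start per gene 18 members (19.8%, 12.9 to 29.1%) had PHF13 within 1 kb against 10.0% of all genes, which lay below the interval. The interval of 13.8 to 30.3% also lay above the share of all genes for coding transcripts only (11.9%), distance from the summit (13.4%) and single-copy peaks (12.4%). No paired analysis was possible because each antibody has 1 library and no replicate numbers are given. The depth of about 21 fragments at a median PHF13 summit limits the detection of weaker sites.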

Other observations

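Ribosomal protein genes have many processed pseudogenes, intronless copies made from their mRNAs that lack the promoter of the parent gene. Of 1579 annotated processed pseudogenes with a ribosomal protein symbol, 13 overlapped a PHF13 peak (0.823%, 95% Wilson interval 0.482 to 1.40%), against 1.78% of 10587 processed pseudogenes of all kinds. An EZH2 peak overlapped 20 (1.27%, 0.821 to 1.95%), against 2.74%. Both intervals lay below the share of all processed pseudogenes, and the part of pseudogene length or of reads that match several copies in these shares was not tested.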
